A study of Mus musculus with 12 samples.

Results

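The footprint and mRNA libraries of eyes labelled RNG140KO were compared transcript by transcript, to describe how ribosomes were spread over the mRNAs of the newborn eye in the absence of RNG140. The transcripts were those with a listed length in the count tables and at least 10 counts summed over the 3 footprint libraries and at least 10 over the 3 mRNA libraries of the knockout (KO), with each identical set of 6 counts kept once. This kept 21544 of the 63759 transcripts in the tables, here called features. The whole series held 12 libraries of mouse eye at postnatal day 0.5: 3 footprint and 3 mRNA libraries from KO eyes, and the same from wild-type (WT) eyes, which served as the comparison. The labels give no strain, sex, litter or design of the deleted allele. Nor do they state which animals, or how many, went into each library, and the p-values therefore reflect library-to-library spread that may be technical.

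Ribosome profiling digests RNA with a nuclease and sequences the fragments that ribosomes shield, so footprint counts follow the number of ribosomes on an mRNA. Dividing them by the mRNA counts of the same transcript gives a ratio commonly read as translation efficiency, in which initiation, elongation and the length of the coding sequence all play a part. RNG140, encoded by Caprin2, is an RNA-binding protein found in cytoplasmic RNA granules and related to the translational regulator Caprin1. In the eye Caprin2 is best known from the fibre cells of the lens, which make very large amounts of crystallins.

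Neither the tables nor the reference tables used here link the UCSC identifiers to genes. Features are therefore described by listed length, abundance and ratio, and the level of Caprin2 itself, crystallins and other gene lists was not analysed. The KO genotype rests on the labels. The listed length is a number the authors deposited with each transcript, with no stated unit. It is used to order features and, on a log2 scale, for slopes per doubling.

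Total counts were 5498069, 2266036 and 1875021 in KO footprint libraries 1 to 3 and 709372, 794785 and 772633 in KO mRNA libraries 1 to 3. The features took up 87.1% to 87.2% of the counts of each KO footprint library and 85.5% to 86.1% of each KO mRNA library. Counts of a feature were modest, with a median of 82 summed over the footprint libraries and 39 over the mRNA libraries, and 82.4% of features had fewer than 100 mRNA counts in all. Within an assay the KO libraries were alike: Spearman correlations across features lay between 0.906 and 0.920 among footprint libraries and between 0.829 and 0.850 among mRNA libraries. Across assays they were lower, from 0.555 to 0.667. KO footprint library 1 differed from libraries 2 and 3 in where its counts lay, with a chi-square per degree of freedom of 31.1 and 12.9 against them. Libraries 2 and 3 differed by 5.71. This measure rises with depth, and library 1 was the deepest. Results that the difference touches are given with and without library 1.

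Footprint levels were far from proportional to mRNA levels. The ratio of footprints to mRNA, scaled so that its centre lies near 1 (median log2 ratio -0.04), was between 0.573 and 1.76 from the 25th to the 75th percentile of features and between 0.293 and 4.54 from the 5th to the 95th. It lay within 2-fold of the centre in 12901 features, or 59.9%, over 4-fold higher in 1371 and over 4-fold lower in 622. Ratios of more than 16-fold above the centre occurred in 63 features, against 2 that were as far below. The standard deviation of the log2 ratio across features was 1.21, and it was 1.35 for the 3337 features with at least 100 counts in each assay.

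Footprints exceeded mRNA, relative to the centre, in 4918 features and fell short in 4338 (edgeR quasi-likelihood test, adjusted p under 0.05), together 43.0% of the 21544 tested. A stricter test, for a ratio beyond 2-fold in either direction, called 1920 features higher and 1067 lower, 13.9% of those tested. In 5710 features all 3 footprint libraries lay above all 3 mRNA libraries and in 5267 all lay below, so the assays did not overlap in 51.0% of features. The zero of the ratio is set by the scaling: with library totals in place of TMM factors the median log2 ratio was -1.03, and the share of calls that were higher was 12.9% in place of 53.1% (8.64% in place of 64.3% beyond 2-fold). Higher and lower below mean relative to the TMM centre. Many features are overlapping transcripts that share reads. When runs of neighbouring, correlated features were reduced to 1 each, 5916 of 14841 were called and 1809 were called beyond 2-fold.

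**Figure D1:**
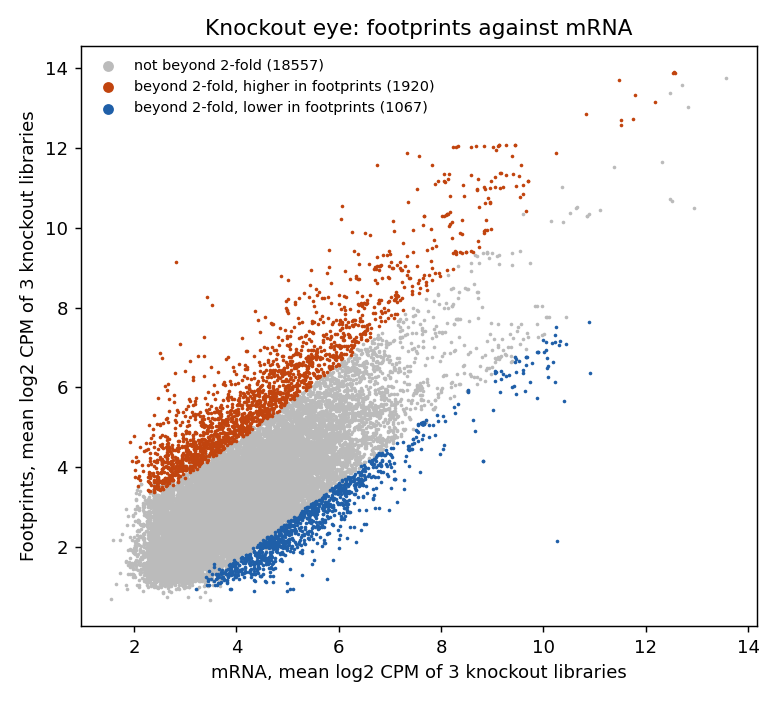
Each point is 1 of 21544 features, with the mean log2 CPM (counts scaled to a common library total, prior count 2) of the 3 KO mRNA libraries on the horizontal axis and of the 3 KO footprint libraries on the vertical axis. The 1920 features called beyond 2-fold higher (orange) reach the highest footprint levels, and the 1067 called lower (blue) lie along the lower edge.

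The features with high ratios carried a large part of all footprints. The 1920 called beyond 2-fold higher held 49.0%, 50.7% and 48.7% of the counts of KO footprint libraries 1, 2 and 3, but 15.4%, 12.9% and 13.8% of the KO mRNA counts. Those 1067 called beyond 2-fold lower held 1.12%, 1.20% and 1.56% of the KO footprint counts and 9.07%, 12.3% and 11.5% of the mRNA counts. These lists were picked by this contrast, so the KO shares are a description. In the WT libraries, which had no part in picking them, the first list held 26.8%, 42.0% and 50.6% of footprint counts and 9.46%, 9.65% and 14.5% of mRNA counts, with no overlap between the assays. The second held 4.35%, 2.28% and 1.42% of WT footprint counts and 9.39%, 9.36% and 8.56% of WT mRNA counts, again without overlap.

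The transcripts with the most extreme ratios that had at least 100 counts in each assay are given as examples, 2 in each direction, by a rule that skipped look-alikes. The rule took only features called beyond 2-fold whose KO footprint and mRNA libraries did not overlap, so their KO values are a description. The transcript uc007pty.2, of listed length 117, had 3025, 2589 and 3609 footprint CPM in the 3 KO libraries and 110.0, 94.4 and 115.2 mRNA CPM. The lowest footprint library was thus far above the highest mRNA library, and its log2 ratio was 5.83 (SE 0.51, edgeR adjusted p = 2.3e-10). With 16631, 5867 and 6767 KO footprint counts it is one of 15 highly counted transcripts of this length that cannot be taken as separate measurements. In WT its footprints reached 1598, 3011 and 4603 CPM and its mRNA 26.5, 18.005 and 82.3 CPM.

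The transcript uc009avl.2, of listed length 123, had 836.1, 1685 and 1184 footprint CPM and 80.4, 59.1 and 58.2 mRNA CPM in KO. Its log2 ratio was 5.16 (SE 0.44, edgeR adjusted p = 1.24e-10). Its mRNA was level across the genotypes, at 65.9 ± 12.5 CPM in KO and 70.5 ± 6.75 in WT (SD, n = 3). The footprints of this transcript were higher in every KO library than in any WT library, where they ranged from 213.5 to 429.7 CPM. Its WT log2 ratio was 3.04. The difference between genotypes, estimated as 1.998 (SE 0.70) in a joint model of all 12 libraries with its own scaling, did not pass the test (edgeR adjusted p = 0.328).

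At the other end, uc007epx.2, also of listed length 123, had 39.8, 41.9 and 71.5 footprint CPM in KO against 840.2, 1793 and 1668 mRNA CPM. Its log2 ratio was -3.87 (SE 0.40, edgeR adjusted p = 4.1e-09), so transcripts of equal listed length stood at both ends of the range. In WT the footprints were at 48.4 to 61.0 CPM, within the KO range, and the mRNA at 382.6 to 778.1 CPM, below every KO library.

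The transcript uc007wzo.3, of listed length 1978, had 9.28, 18.1 and 27.2 footprint CPM in KO against 411.6, 508.3 and 438.8 mRNA CPM. Its log2 ratio was -3.77 (SE 0.35, edgeR adjusted p = 4.56e-10). It rested on few footprints, 51, 41 and 51 counts in the 3 KO libraries. Its WT log2 ratio, -2.66, was of the same sign. All 4 of these transcripts kept their direction and call in each of 15 alternative analyses, which reuse the KO counts that picked them.

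**Figure D2:**
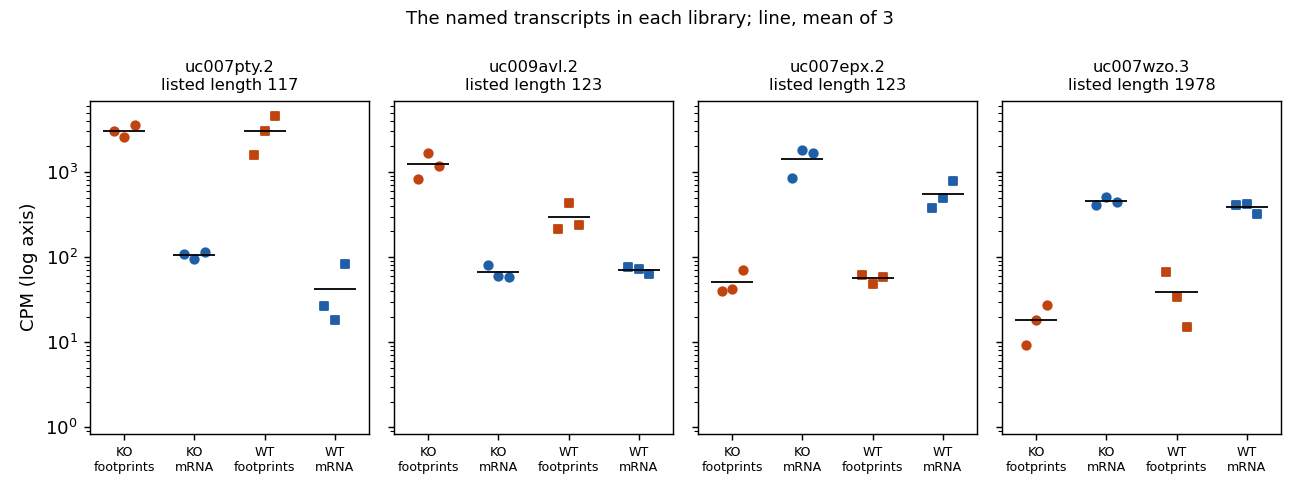
Levels in CPM (log axis) of the 4 named transcripts in each library, with footprints in orange, mRNA in blue, KO as circles and WT as squares, and a line at the mean of 3. In KO the footprint and mRNA libraries do not overlap in any of the 4 panels, with footprints above mRNA in the first 2 and below in the last 2. This lack of overlap was a condition for naming them.

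Low counts hid still larger ratios among the features. The highest log2 ratio kept, 7.43 (SE 0.51, edgeR adjusted p = 4.08e-12), belonged to a transcript of listed length 328 with 3760, 1037 and 1097 KO footprint counts and 6, 2 and 7 KO mRNA counts. The lowest, -7.67 (SE 0.62, edgeR adjusted p = 6.18e-11), belonged to one of listed length 332 with 3, 9 and 17 footprint counts and 1947, 571 and 716 mRNA counts. The first exceeded 100-fold with hardly any mRNA reads, and the second ranked 31 by mean KO mRNA CPM with almost no footprints. Both were chosen after their values were seen. In WT their log2 ratios were 7.79 and -8.16.

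Short features had higher footprint to mRNA ratios than long ones. The ratio is one of read counts, so it does not give the number of footprints per mRNA molecule. In the first quartile by listed length (16 to 288) the median log2 ratio was 0.59, and 38.6% were called higher and 8.92% lower. In the second quartile (289 to 475) the median was 0.16, with 24.8% higher and 12.9% lower. In the third quartile (476 to 769) it was -0.18, with 16.4% higher and 22.1% lower. In the longest quartile (770 to 33458) it was -0.55, with 11.4% higher and 36.7% lower. With library totals as the scale the 4 medians were -0.43, -0.84, -1.18 and -1.53, all below 0 but in the same order. The tails went further: the 303 features of listed length up to 90 had a median of 1.33, and the 133 of 3000 and over had a median of -1.11.

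Ratio and listed length had a Spearman correlation of -0.336 over the features. It was -0.274 without KO footprint library 1 and -0.389 over the 3337 features with at least 100 counts in each assay. Setting footprint and mRNA libraries of the same number together gave 3 ratios that share no library, and their correlations with length were -0.463, -0.249 and -0.266. The first of these, which contains footprint library 1, stood apart. Within each quartile of abundance, set by the WT mRNA libraries so that the KO counts had no part in it, the correlation was negative and grew with abundance, from -0.255 in the lowest quartile to -0.273, -0.301 and -0.353 in the highest. In the most abundant quartile the medians ran from 1.02 for the shortest features to -0.67 for the longest, and in the least abundant from 0.45 to -0.35.

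**Figure D3:**
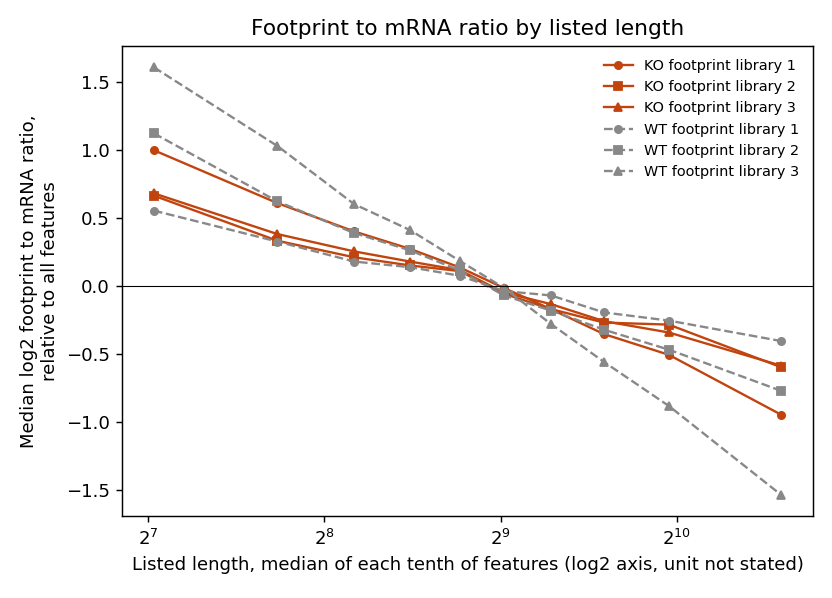
Median log2 ratio of each footprint library to the mean of the 3 mRNA libraries of its genotype (vertical axis, relative to the median over all features) for 10 equal groups of features ordered by listed length (horizontal axis, log2 scale). All 3 KO lines (solid orange) and all 3 WT lines (dashed grey) descend with length, and KO footprint library 1 descends more steeply than KO libraries 2 and 3.

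The same shift was measured in whole libraries. The shortest quartile of features held 62.2%, 40.0% and 49.8% of the feature counts in KO footprint libraries 1, 2 and 3 and 32.8%, 36.9% and 35.2% in the mRNA libraries. The longest quartile held 13.1%, 29.5% and 22.2% of footprint counts and 32.6%, 29.7% and 29.7% of mRNA counts. The assays did not overlap in either share, although footprint library 2 was close to the mRNA libraries in both. Without footprint library 1 the mean difference, footprints minus mRNA, went from 15.7 to 9.86 percentage points in the shortest quartile and from -9.04 to -4.77 in the longest. Per doubling of listed length, log2 CPM changed by -0.15, 0.07 and 0.04 in the footprint libraries and 0.39, 0.35 and 0.32 in the mRNA libraries. The mean difference of these slopes was -0.37, and it was -0.30 without footprint library 1. Every KO footprint library was deeper than every KO mRNA library, and footprint library 1 was the deepest. The part of depth in these shares and slopes was not tested. Over the 3337 features with at least 100 counts in each assay the mRNA slopes changed sign, to -0.11, -0.15 and -0.18, and the footprint slopes were -0.71, -0.38 and -0.46, so the sign of a slope depends on the features taken while their difference was again -0.37. Longer transcripts can give more mRNA reads per molecule, so a slope above 0 does not say that long mRNAs were more numerous.

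Footprints were also concentrated on fewer features than mRNA. The 100 features highest in mean KO CPM fell into 51 runs of neighbouring, correlated features for footprints and 76 for mRNA. Many can thus share reads, and the part this plays in the shares below was not tested. The 100 most counted features of each library held 51.3%, 38.8% and 41.9% of its feature counts in KO footprints, 44.0% ± 6.52 on average, and 22.4%, 23.5% and 21.2% in KO mRNA, 22.3% ± 1.16 (SD, n = 3). The difference of 21.6 percentage points was larger than the spread within either assay, and it was 17.985 without footprint library 1. For this share, the 2 length shares and the slope, the two-sided exact permutation p was 0.1 each, the smallest that 3 against 3 libraries can give, and 0.1 after Benjamini-Hochberg adjustment over the 4 tests. The footprint libraries spread widely in the length shares, so that the means of 50.7% ± 11.2 and 35.0% ± 2.05 (SD, n = 3) for the shortest quartile rest on unlike libraries.

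**Figure D4:**
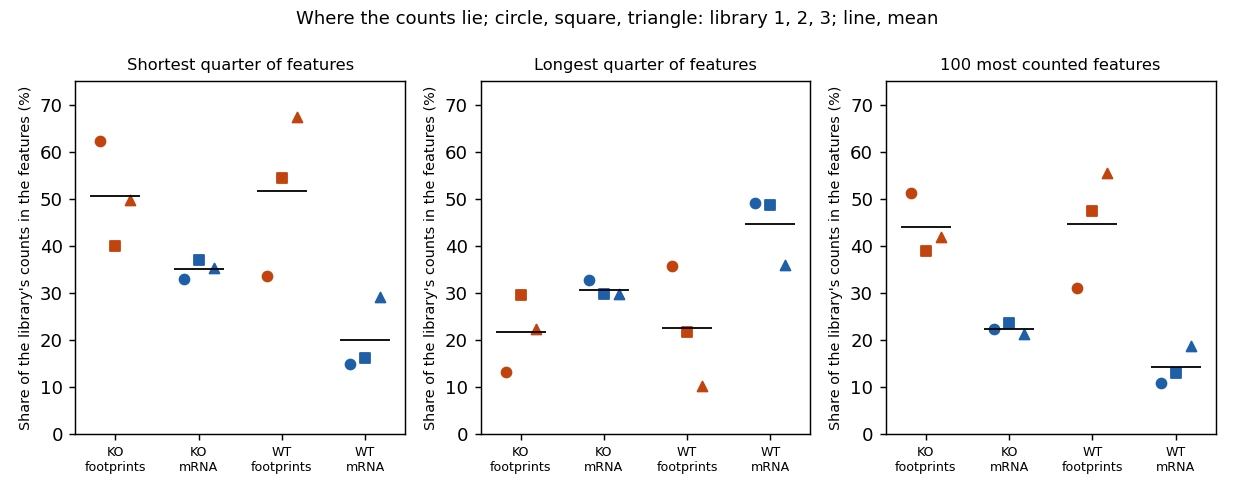
Share of each library's feature counts, in percent from 0, that lay in the shortest quartile of features, the longest quartile and the library's own 100 most counted features, with library 1 as a circle, 2 as a square, 3 as a triangle and a line at the mean. KO footprint libraries lie above KO mRNA libraries in the left and right panels and below in the middle one, where footprint library 2 (29.5%) is next to mRNA libraries 2 and 3 (29.7%).

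The top of the 2 assays was shared only in part. Of the 100 features with the highest mean CPM in KO mRNA, 36 were also among the 100 highest in KO footprints. The highest mRNAs were split: 27 of the 100 were called higher in footprints and 56 lower, 19 and 39 beyond 2-fold, and their median log2 ratio was -1.34. Over all features, 22.8% were called higher and 20.1% lower, and 8.91% and 4.95% beyond 2-fold. The mRNA counts that chose these features also enter the ratio, so this split is a description. The most counted feature of all 3 mRNA libraries had a listed length of 206 and took 1.56%, 1.49% and 1.23% of their feature counts. It was also first in KO footprint library 1, with 2.90%, whereas in footprint libraries 2 and 3 a feature of listed length 1444 was first, with 2.50% and 1.63%. Among the 10 most counted features, 10, 7 and 8 in the footprint libraries and 8, 8 and 7 in the mRNA libraries had listed lengths between 160 and 210, a range set after the values were seen. Those 10 features took 23.6% of the feature counts in footprint library 1, 11.7% and 12.8% in footprint libraries 2 and 3, and 10.02%, 8.40% and 7.16% in the mRNA libraries. In this share of the top 10, footprint libraries 2 and 3 were thus nearer to the mRNA libraries than to footprint library 1. In the share of the 100 most counted features, 38.8% and 41.9%, they were nearer to footprint library 1, at 51.3%.

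A few single listed lengths stood out within the short range. Among the 458 lengths held by at least 20 features, 117 had the highest median log2 ratio, 3.79 over 31 features, and 94 the second, 2.55 over 23 features. Next came 125 with 1.49, 163 with 1.42 and 121 with 1.36. The lowest median among these lengths was -0.82, at 558. Of the features of length 117, 22 were called beyond 2-fold higher and none lower, against 8.91% called higher over all features, and the 3 footprint libraries lay wholly above the mRNA libraries in 26, against 26.5% over all features. They made up 7.11%, 6.14% and 8.47% of the feature counts in KO footprints and 0.856%, 0.725% and 0.889% in KO mRNA. Of length 94, 13 of 23 were called beyond 2-fold higher, again against 8.91%, with 2.48%, 2.29% and 3.14% of footprint counts and 0.676%, 0.521% and 0.766% of mRNA counts.

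Both groups were mixtures. Of the 31 features of length 117, 19 had at least 1000 KO footprints, and their log2 ratios ran from 2.42 to 5.83, while the 12 with fewer had a median of 0.77. Of the 19, 15 had at least 20000 footprints each, up to 41470. How reads shared by near-identical transcripts were counted is not given in the sources used here, so these 15 cannot be taken as separate measurements. With library totals as the scale the medians were 2.79 for length 117 and 1.56 for length 94. The lengths were picked by their KO ratio. In WT the same features had medians of 4.54 and 3.49, with 30 of 31 and 22 of 23 above 0.

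The KO ratios recurred in WT, in separate libraries. Footprint and mRNA libraries were prepared by the same 2 methods in both genotypes, and the part of these methods in the recurrence was not tested. Over the 21544 features, KO and WT log2 ratios correlated at 0.744 (Pearson) and 0.735 (Spearman), across features that are not independent. The WT footprint libraries were less alike than those of KO, with Spearman correlations of 0.665 to 0.835. They also differed more in depth, with 327847, 847125 and 5966639 total counts in libraries 1 to 3, and the features were chosen by KO counts. The part of depth in the lower correlations was not tested. WT footprint library 1 correlated at 0.665 with WT footprint library 3 but at 0.740 to 0.749 with the 3 WT mRNA libraries. Ratios of same-numbered libraries correlated (Pearson) between KO and WT at 0.359 to 0.427 for WT number 1, 0.540 to 0.635 for number 2 and 0.615 to 0.737 for number 3. The KO and WT ratios over all libraries were spread alike, with standard deviations of 1.21 and 1.22. Of the features called beyond 2-fold in KO, 98.8% of those higher and 97.4% of those lower had a WT log2 ratio on the same side, against 78.9% of all features. The WT medians of these 2 lists were 1.82 and -1.33, compared with 2.26 and -2.06 in KO, where the lists were picked.

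Fewer features were called in WT: 2111 higher and 1568 lower, 17.1% of those tested. Of the KO calls 30.8% were called the same way in WT, and of the WT calls 77.6% were called the same way in KO. Only 13 features were called in opposite directions. The WT libraries varied more, with a biological coefficient of variation of 0.368 against 0.231 in KO (edgeR common dispersion). The number of WT calls was 143 without WT mRNA library 1, 244 without WT mRNA library 2, 1670 without WT footprint library 2, 1819 without WT footprint library 3 and 6844 without WT footprint library 1. The KO count was steadier, from 7712 to 8804 as each KO library was left out. A smaller number of calls in WT thus does not show weaker ratios.

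**Figure D5:**
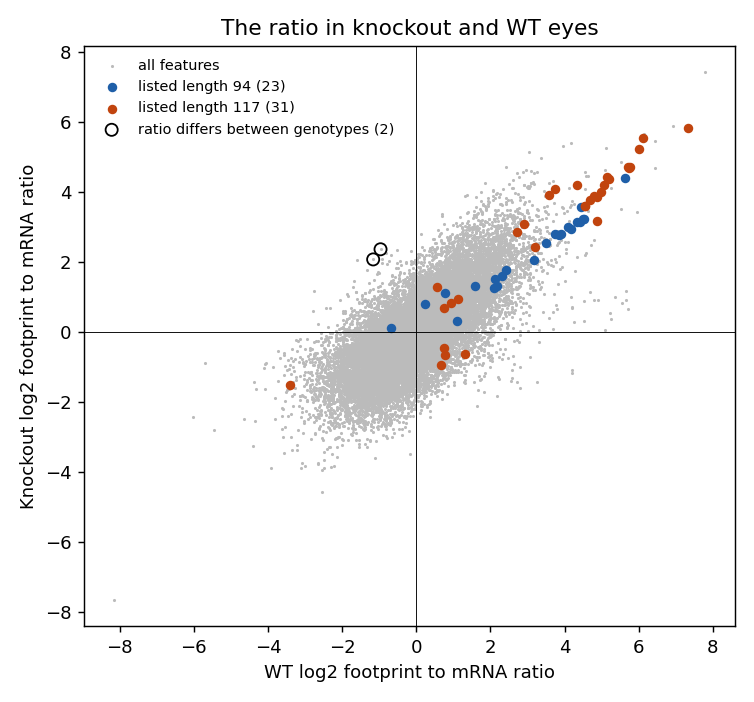
Log2 footprint to mRNA ratio of each of the 21544 features in WT (horizontal) and KO (vertical), with features of listed length 94 in blue and of 117 in orange. The 2 features called by the edgeR interaction test are circled. Most points lie along the diagonal (Pearson correlation 0.744), and the circled ones lie above 0 in KO and below 0 in WT.

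A direct test of the difference between the KO and WT ratios, the interaction in 1 edgeR model of all 12 libraries, called 2 of 21544 features, 0.00928%, and 2262 had an unadjusted p under 0.05. The DESeq2 test called 59 of the 4001 features to which it gave an adjusted p. Both called features had a higher ratio in KO, lie close together in the tables, with 2 transcripts between them, and are named because the count is so small. The transcript uc007jmq.1, of listed length 288, had 30.6, 63.1 and 79.5 footprint CPM and 24.0, 17.6 and 20.7 mRNA CPM in KO. In WT it had 12.2, 16.5 and 14.4 footprint CPM and 76.4, 52.5 and 54.9 mRNA CPM, so KO and WT libraries overlapped in neither assay. Its log2 ratio was 2.37 in the KO fit and -0.96 in the WT fit, and the joint model, which scales all 12 libraries together, put the difference at 3.19 (SE 0.52, edgeR adjusted p = 0.0458).

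The transcript uc007jmm.1, of listed length 892, showed the same pattern, with 156.6 ± 71.8 footprint CPM in KO and 53.4 ± 15.5 in WT, and 69.5 ± 25.3 mRNA CPM in KO and 217.8 ± 18.6 in WT (SD, n = 3). The difference of its log2 ratios was 3.11 (SE 0.54, edgeR adjusted p = 0.0482). Both calls are close to the threshold. None was made without KO footprint library 2, KO footprint library 3, WT footprint library 2 or any 1 of the 6 mRNA libraries. Both were among the 9, 31 and 131 calls made without KO footprint library 1, WT footprint library 1 and WT footprint library 3.

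The relation of the ratio to listed length had the same direction in both genotypes, with a Spearman correlation of -0.525 in WT and -0.336 in KO. Among same-numbered libraries it was -0.319, -0.470 and -0.510 in WT, a range that holds the first KO value, -0.463, but not the KO values of -0.249 and -0.266. The median WT log2 ratios in the 4 quartiles of listed length were 0.999, 0.26, -0.20 and -0.74, in the same order as in KO. The mRNA libraries did not overlap between genotypes in this respect: the shortest quartile held 14.9%, 16.1% and 29.0% of WT mRNA feature counts, below the 32.8% to 36.9% of KO, and the slopes on listed length were 0.75, 0.73 and 0.45 in WT, above those of KO. In the footprint libraries the genotypes overlapped, with 33.6%, 54.3% and 67.3% of WT counts in the shortest quartile. The WT footprint slopes were 0.40, 0.16 and -0.16, in libraries of 327847, 847125 and 5966639 total counts. The features were chosen by KO counts in both assays, so the genotypes are not on equal terms here. The differences between genotypes in shares and slopes, and the part of depth in them, were not tested.

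Transcripts that did not reach 10 counts in both assays lie outside these results. Another 5298 transcripts had at least 10 KO footprints but under 10 KO mRNA counts, with a median listed length of 275, and 785 had the reverse, with a median of 418, against 475 for the features. At the edge, 601 transcripts had exactly 10 mRNA counts and 616 exactly 9, with median footprint sums of 28 and 28.5. The rule thus passed over more transcripts with footprints and little mRNA than the opposite. The KO footprint libraries were deeper, with 1875021 to 5498069 counts against 709372 to 794785 in mRNA. A cut of 10 counts is therefore a lower CPM in footprints, and the part of depth in this imbalance was not tested.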

How the data were processed

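Footprint and mRNA libraries of P0.5 eyes were analysed, 3 per assay and genotype. Per the labels, footprints came from RNase I digestion and ribosome pelleting and mRNA libraries from a TruSeq stranded mRNA kit; the part these preparations play in the ratio was not tested. The submitters' processing notes name CASAVA 1.8, Bowtie2 2.3.4.2, TopHat2 2.0.9 and mm10. The authors deposited whole-number counts per transcript, not normalized, and a length, missing for 17340 transcripts, which had no counts. The counting rule is not given in the sources used here.

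Footprints were tested against mRNA with edgeR 4.0.16 (quasi-likelihood F test, TMM scaling, R 4.3.3, limma 3.58.1) over all 21544 features, with Benjamini-Hochberg adjustment and a threshold of 0.05. The test beyond 2-fold was edgeR's glmTreat. Standard errors (SE) were derived from the F statistic. CPM are counts scaled to a common library total, not divided by length, and log2 CPM had a prior count of 2. The fits were tested on simulated data. Libraries of a group were checked for repeats: the chi-square of their counts per degree of freedom was 1.82 to 31.1, above sampling noise in every pair. Of the features called beyond 2-fold with at least 100 counts in each assay and no overlap between assays, the 2 with the most extreme ratio in each direction were named, skipping one whose profile correlated over 0.95 with one taken; 468 higher and 223 lower qualified. The features, lists and tests were chosen with earlier results of these data known. Alternatives were DESeq2 1.42.0 (size factors, and its test), library totals, other count filters, all 12 libraries in 1 fit, the replicate number as a block, every transcript separate, limma voom with sample weights, an adjusted p under 0.01, and each library left out.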

Additional observations from a re-analysis of the deposited data

Results flagged for a closer look

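The footprint to mRNA ratio differed between KO and WT, by the interaction test, for uc007jmq.1 (log2 difference 3.19) and uc007jmm.1 (3.11). Both had more footprints and less mRNA in every KO library than in any WT library. Both calls were close to the threshold, and several single libraries, any 1 mRNA library among them, could not be left out without losing both. The transcripts are near neighbours, and whether they share reads was not tested. Signal was also present in transcripts that the comparison leaves out: 5298 had at least 10 KO footprints and under 10 KO mRNA counts, of which 339 had no KO mRNA count. With at least 100 KO footprints and no KO mRNA count there were 10, of listed lengths 28 to 870, and all 10 also had WT footprints, from 25 to 3108, with at most 6 WT mRNA counts. The largest, of listed length 127, had 1987, 664 and 791 KO footprints. Conversely, 15 transcripts had at least 10 KO mRNA counts and no footprint, the highest with 41 mRNA counts. The footprint libraries were deeper, so the same count is a lower CPM there and these numbers are not on equal terms.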

How the results depend on the processing

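In most alternatives the number of KO calls, 9256, stayed within 1.5 times (6500 to 12516). The calls themselves were not all the same. Of the 12516 with library totals, where the centre moved, 10898 were lower and 5956 were called the same way in the main fit. With correlated neighbours merged, an alternative chosen after seeing the data in which fewer features are tested, there were 5916. Beyond 2-fold (2987 calls) counts were 6295 with library totals, where the centre moved, 1982 with at least 30 counts in each assay, where fewer features were tested, 1967 with all 12 libraries in the fit, and 1809 with neighbours merged. As each library was left out they ran from 7712 to 8804 and from 2255 to 3007 beyond 2-fold. For WT (3679 calls) the count was 143 to 6844 with libraries left out, and for KO against WT (2 calls) 0 to 131, and 59 with DESeq2; the cause was not tested.

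The labels do not say that replicate numbers pair libraries. Deviations of same-numbered footprint and mRNA libraries correlated at 0.107, 0.0702 and 0.0348 in KO and 0.242, 0.0287 and 0.407 in WT. These values were too low to take the numbers as pairs. With 82.4% of features under 100 mRNA counts, they cannot exclude pairing either. Each footprint library correlated best with the mRNA library of its own number, a hint from the data (WT mRNA library 2 correlated more with footprint library 1, at 0.157). With the replicate block there were 9712 KO calls, 3121 beyond 2-fold, 6161 in WT and 292 for KO against WT.

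The correlation of the KO ratio with length was -0.367 to -0.274 and the slope difference -0.41 to -0.30 with libraries left out. Footprint minus mRNA shares were 9.86 to 21.0 percentage points for the shortest quartile, -13.0 to -4.77 for the longest and 17.985 to 24.2 for the 100 most counted features; for the 10 most counted it was 7.48. Depth of the mRNA libraries limits single features: 82.4% had under 100 mRNA counts.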
